A study of Mus musculus with 2 samples.

Results

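The proteasome genes described here are the 50 protein-coding genes of GENCODE M21 whose symbols match the families Psma to Psmg followed by a digit, out of 21911 protein-coding genes on chromosomes 1 to 19, X and Y. They were selected by symbol, with no measured value in the rule. The family itself was chosen with earlier results of these data known. The assay was DNase-seq, which sequences the ends left where the nuclease DNase I cuts accessible DNA. It was run on whole testis of male B6CASTF1/J mice (an F1 cross) at 14 days of age. There is 1 group with 2 biological replicates, no treatment and no compared genotype or age. Replicate 1 is labelled as 3 males and replicate 2 as a male, with a shared donor identifier, so how far their spread is technical is unknown. With 1 group of 2 libraries no test between conditions exists, and the values below are descriptions with their spread between libraries (SD, n = 2).

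The proteasome degrades proteins tagged with ubiquitin. Its core is a barrel of outer alpha rings (Psma genes), which gate the entrance, and inner beta rings (Psmb genes), of which Psmb5, Psmb6 and Psmb7 carry the chymotrypsin-like, caspase-like and trypsin-like active sites. A cap of ATPases (Psmc genes) and other subunits (most Psmd genes) binds, deubiquitinates and unfolds substrates, and separate factors activate the core (Psme genes) or help to assemble it (Psmg genes, Psmd5, Psmd9 and Psmd10). Some cells exchange subunits for paralogs: Psmb8, Psmb9 and Psmb10 replace Psmb5, Psmb6 and Psmb7 in the immunoproteasome of immune and interferon-treated cells, Psmb11 takes the place of Psmb5 in cortical epithelium of the thymus, and Psma8 takes that of Psma7 in meiotic germ cells of the testis. Psmc3ip matches the symbol rule but is no subunit. It encodes a partner of the recombinases of meiotic strand exchange and is kept apart below.

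The value of a gene is the highest signal among peaks that touch a window of 1000 bp on each side of any of its annotated starts, or 0 where none is listed. The signal is the authors' own, in arbitrary units scaled per library. A gene is called open where both libraries list such a peak. Of the 50 genes, 48 were open, against 68.7% of all protein-coding genes. The exceptions were Psmb11 and Psme2b, which had no peak in either library. All 48 were also open in the shorter peak list, in which 63.4% of all genes were. The median value over the 50 genes was 6.34 in replicate 1 and 6.53 in replicate 2, and over all 15059 open genes it was 4.04 and 3.68. In both libraries 37 of the 50 lay above the median of open genes, against 32.9% of all protein-coding genes. In whole tissue, fewer open cells of a type and less open DNA per cell cannot be told apart.

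Fixed marker genes were set beside the tissue label. All 6 spermatocyte markers, all 5 Sertoli cell markers and all 4 Leydig cell markers were open, with medians of 6.34 and 5.5, of 2.22 and 2.06, and of 0.704 and 0.698 in the 2 libraries. None of the 4 spermatid markers was open. Of the 6 leukocyte markers reported only Ptprc was open, at 0.323 and 0.196, while Cd74 had a peak in replicate 2 alone and Cd3e, Adgre1, C1qa and Lyz2 had none. Of 5 markers of thymic epithelium, 4 were open, with medians over the 5 of 0.871 and 0.759, above those of the Leydig markers. Foxn1, the transcription factor that defines this epithelium, had no peak. Ccl25 had 10.8 and 9.05, Aire 1.88 and 2.37, Prss16 0.871 and 0.759 and Cd83 0.468 and 0.276. Of all protein-coding genes 68.7% were open, so a count of open markers does not by itself identify a cell type.

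The 31 constitutive subunits of core and cap were open without exception, against 68.7% of all protein-coding genes. Their median value was 7.41 ± 0.095. Of the 31, 27 lay above the median of open genes in both libraries, as did 7208 of the 15059 open protein-coding genes. The subunits spanned from 2.22 to 14.7 in replicate 1 and from 2.30 to 18.5 in replicate 2. Subunits that assemble into the same particle in equal numbers thus had promoters of unequal accessibility. In the plot of values by gene, the order of the members was much alike in the 2 libraries, with Psmb3 first and Psma8 last among the 48 open members in each.

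**Figure D1:**
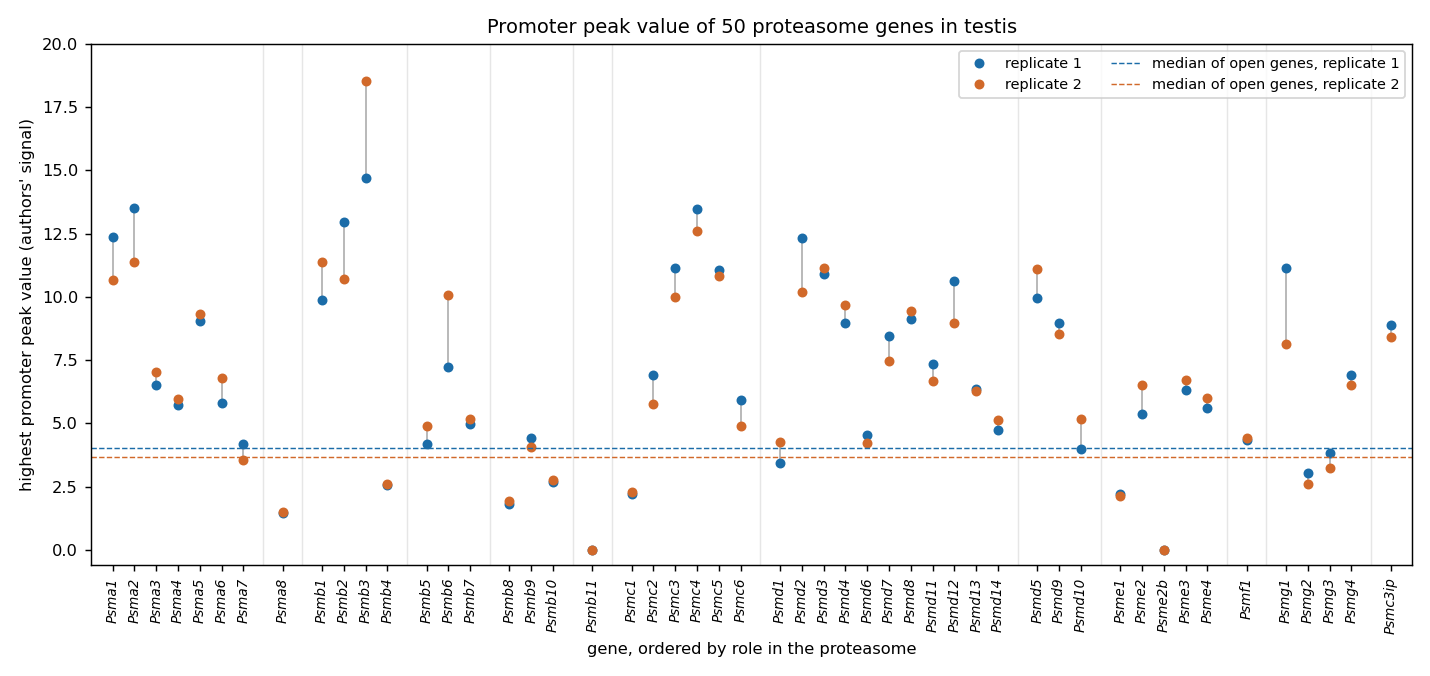
Highest promoter peak value (authors' signal, arbitrary units) of each of the 50 genes, ordered by role. Points are the 2 libraries, joined by a grey line, and dashed lines mark the median of open genes in each library (4.04 and 3.68). Psmb11 and Psme2b sit at 0, and Psma8 is the lowest of the other genes at 1.47 and 1.48.

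Among the alpha ring genes, Psma2 had 13.5 in replicate 1 and 11.4 in replicate 2, and Psma1 had 12.4 and 10.7. Psma5 followed at 9.04 and 9.32. Psma3, Psma6 and Psma4 formed a lower set between 5.72 and 7.03, within which neighbours overlapped between libraries. Psma7, the subunit that Psma8 replaces in germ cells, was the lowest constitutive alpha gene at 4.17 and 3.54 (3.86 ± 0.44), close to the median of open genes.

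The testis form Psma8, on chromosome 18 (14706151 to 14762301), had a single promoter peak in each library, at 14706061 to 14706280 in replicate 1, with its midpoint in an exon 19 bp from an annotated start. Its value was 1.47 in replicate 1 and 1.48 in replicate 2 (1.48 ± 0.0047). Peak values come in whole steps, and these correspond to 274 and 392 steps. Treating steps as independent events would give counting errors of 6.04% and 5.05%, which is an assumption about the unit. Psma7 was 2.83 and 2.40 times as high as Psma8, and the libraries did not overlap between these 2 genes. The Psma7 peak is shared with the divergent gene Ss18l1, with nearest starts 76 bp apart, so its value cannot be assigned to Psma7 alone. All 31 constitutive subunits lay above Psma8 in both libraries, and 28.8% of open genes lay below it. By contrast, Psmc3ip, the meiotic partner gene, had 8.90 and 8.40 (8.65 ± 0.36), above 76.4% of open genes, and the 6 spermatocyte markers ran from 4.99 to 8.57 in replicate 1. Psma8 also held a peak inside the gene, 23449 bp from its 5' end in replicate 1, with 0.737 and 1.02.

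Among the beta ring genes without an active site, Psmb3 was the strongest promoter of all members. It had 14.7 in replicate 1 and 18.5 in replicate 2 (16.6 ± 2.7), rank 560 of all protein-coding genes. Psmb2 had 12.97 and 10.7, and Psmb1, which shares its peak with the divergent gene Tbp, had 9.89 and 11.4. Psmb4 stood apart at 2.58 and 2.60, the second lowest of the constitutive subunits after the ATPase gene Psmc1.

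The Psmb3 peak is shown because it is the highest, in mm10 on the plus strand at chr11:97703221-97703440. Capitals mark bases that lie in footprints of both libraries, footprints being short stretches protected from cutting. All sequences are of the C57BL/6J reference genome, and the alleles of the other parental strain were not analysed here.
Psmb3: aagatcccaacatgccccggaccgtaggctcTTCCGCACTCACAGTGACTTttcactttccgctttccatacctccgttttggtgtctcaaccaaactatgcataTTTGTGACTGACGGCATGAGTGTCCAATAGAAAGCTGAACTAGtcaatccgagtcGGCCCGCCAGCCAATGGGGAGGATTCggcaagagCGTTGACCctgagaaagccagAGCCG
Of its 220 bases, 46.4% were protected in both libraries, in 5 runs of which the longest was 43 bases. That run and the next each hold CCAAT, the core of the site of the factor NFY.

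The genes for the constitutive active sites were lower than Psmb1, Psmb2 and Psmb3 in both libraries. Psmb5 had 4.19 and 4.91, Psmb7 had 4.99 and 5.15, and Psmb6 had 7.24 and 10.1 (8.65 ± 2.0), the member with the largest ratio between libraries. Each was higher than its immune paralog in both libraries. Psmb5 was 2.33 and 2.52 times as high as Psmb8, Psmb6 was 1.64 and 2.47 times as high as Psmb9, and Psmb7 was 1.86 and 1.86 times as high as Psmb10.

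**Figure D2:**
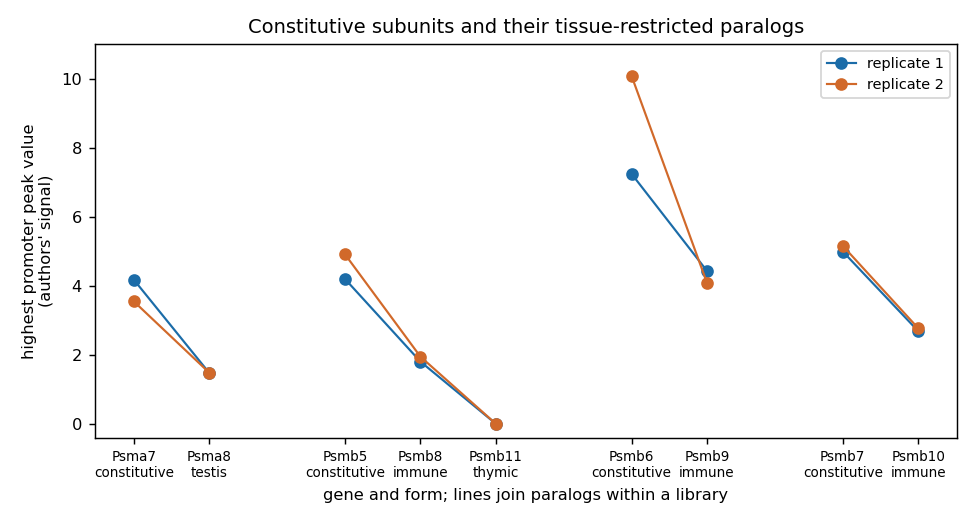
Highest promoter peak value (authors' signal, arbitrary units) of constitutive subunits and the paralogs that replace them, with lines joining paralogs within a library. In each set and both libraries the constitutive gene is the higher one, for example Psmb5 at 4.19 and 4.91 against Psmb8 at 1.80 and 1.94 and Psmb11 at 0.

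All 3 immune forms were open, as were 68.7% of all protein-coding genes, and their median was 2.72 ± 0.059. Psmb9 had 4.42 and 4.08, Psmb10 had 2.68 and 2.77, and Psmb8 had 1.80 and 1.94, and the libraries of these 3 genes did not overlap. Psmb9 was 2.46 and 2.10 times as high as Psmb8. The midpoint of the Psmb9 peak lay in an annotated exon of that gene, upstream of the nearest annotated start. The peak also lies in the window of the divergent gene Tap1, a subunit of the peptide transporter of antigen presentation. The nearest starts of Psmb9 and Tap1 are 30 bp apart, so the value cannot be assigned to either gene. Psmb8 lies on the far side of Tap1 on chromosome 17 and had a peak of its own. Constitutive subunits below Psmb9 in both libraries were Psma7, Psmb4 and Psmc1. All 31 lay above Psmb8, and all but Psmb4 and Psmc1 above Psmb10.

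The peak of Psmb10 (chromosome 8, 105935735 to 105938444, minus strand) did not lie at the 5' end of the gene. Its midpoint was 1364 bp downstream of that end in both libraries, in an intron and 42 bp upstream of another annotated start. Near the 5' end, replicate 1 listed a peak of 0.661 and replicate 2 none; its other peak, of 0.612, lay 757 bp downstream. With the 5' end alone, Psmb7 was 7.54 and 8.43 times as high as Psmb10, and the median of the immune forms came to 1.87. The order of Psmb10 and Psmb8 turned, from a ratio of 1.49 and 1.42 to 0.367 and 0.315. The highest peak of Psmb8 lay at the 5' end of its record, outside its RefSeq promoter window. Another Psmb8 peak, with its midpoint 639 bp downstream of that end, had 0.462 in replicate 1 and was not listed in replicate 2. Ratios to Psmb8 thus rest on the peak at the 5' end, and its RefSeq start alone was not measured.

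The peaks of 2 constitutive genes and their immune paralogs are set beside each other below, along with that of Psmb10, since they show which bases were protected at genes for alternative active sites. Positions are those of replicate 1 in mm10, each sequence is written 5' to 3' on the strand of its gene, and capitals again mark footprints of both libraries. They lie at chr14:54617941-54618120 (Psmb5, minus strand), chr17:34197581-34197780 (Psmb8, plus), chr11:70525241-70525440 (Psmb6, plus), chr17:34187341-34187520 (Psmb9, minus) and chr8:105936941-105937220 (Psmb10, minus).
Psmb5: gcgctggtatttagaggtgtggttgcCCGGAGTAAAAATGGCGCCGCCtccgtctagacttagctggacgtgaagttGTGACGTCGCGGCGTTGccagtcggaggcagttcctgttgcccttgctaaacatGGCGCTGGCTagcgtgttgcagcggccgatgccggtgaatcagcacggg
Psmb8: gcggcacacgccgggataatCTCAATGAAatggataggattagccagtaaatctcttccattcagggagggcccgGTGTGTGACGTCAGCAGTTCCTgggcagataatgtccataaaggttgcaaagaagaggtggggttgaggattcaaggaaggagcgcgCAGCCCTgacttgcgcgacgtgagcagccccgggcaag
Psmb6: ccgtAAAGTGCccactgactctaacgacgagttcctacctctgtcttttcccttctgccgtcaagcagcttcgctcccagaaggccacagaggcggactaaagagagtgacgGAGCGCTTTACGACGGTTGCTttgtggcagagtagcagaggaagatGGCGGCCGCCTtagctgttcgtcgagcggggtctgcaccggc
Psmb9: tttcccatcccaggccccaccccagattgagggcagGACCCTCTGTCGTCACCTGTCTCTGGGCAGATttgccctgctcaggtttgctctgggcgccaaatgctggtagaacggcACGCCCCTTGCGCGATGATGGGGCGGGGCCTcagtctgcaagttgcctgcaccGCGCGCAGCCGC
Psmb10: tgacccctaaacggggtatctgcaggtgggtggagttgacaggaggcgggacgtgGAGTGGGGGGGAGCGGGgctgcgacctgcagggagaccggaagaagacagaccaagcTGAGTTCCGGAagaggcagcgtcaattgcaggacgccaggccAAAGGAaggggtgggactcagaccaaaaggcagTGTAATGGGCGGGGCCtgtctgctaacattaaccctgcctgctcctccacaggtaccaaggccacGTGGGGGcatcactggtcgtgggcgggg
The share of bases protected in both libraries was 27.2% at Psmb5, 19% at Psmb8, 19.5% at Psmb6, 41.7% at Psmb9 and 20.4% at Psmb10. The longest protected run of Psmb8 holds TGACGTCA, the palindromic element bound by CREB family factors. In the promoter windows used for motifs below, 2.89% of those of open genes hold these letters. The run in the Psmb5 peak that starts GTGACGTC holds a match to the loose element of NFE2L1, given below. In Psmb9 the run of 31 bases holds GGGCGG, the box of SP and KLF factors. The Psmb10 peak holds the ETS core CCGGAAG in 2 places, 1 of them partly in capitals. The consensus elements of interferon regulatory factors and NF-kB were in none of these 5 peaks. These elements are rare, in 2.78% and 0.175% of promoter windows of open genes, so their absence from 5 peaks says little. TTCNNNGAA of STAT factors, in 6.64% of those windows, was in the Psmb8 peak, outside the capitals.

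Psmb11, the thymic form, lies next to Psmb5 on chromosome 14 (54621433 to 54629556) and had no peak within 1000 or 2500 bp of its 2 annotated starts. The deposited cut-rate track, which lists bases with a false discovery rate (FDR) below 0.05, held 0 of the 4002 bases of its windows in either library. At Psmb5, whose start lies a few kilobases away, it held 698 and 728 of 2015 bases. Of all protein-coding genes 27.1% had no such base in either library. The RefSeq promoter window of Psmb11 is shown for comparison with Psmb5, as a promoter of the same cluster with no listed peak or footprint (chr14:54625060-54625359, plus strand, GRCm38.p6, the build of mm10).
Psmb11: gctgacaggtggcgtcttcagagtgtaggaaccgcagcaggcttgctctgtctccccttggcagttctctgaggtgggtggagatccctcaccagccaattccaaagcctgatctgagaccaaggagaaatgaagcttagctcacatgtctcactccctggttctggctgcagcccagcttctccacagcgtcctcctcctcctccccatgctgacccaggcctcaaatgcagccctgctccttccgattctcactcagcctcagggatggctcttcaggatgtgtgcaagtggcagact
The ratio of observed to expected CpG dinucleotides in that window was 0.165, against a median of 0.724 over windows of open genes and 0.799 over those of constitutive subunits.

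The FDR track gave the same order of constitutive gene and paralog in the promoter windows. Its highest value on the −log10 scale was 29.0 and 40.2 at Psmb5 and 19.9 and 14.8 at Psmb8. At Psmb6 it was 63.4 and 101 against 40.6 and 37.6 at Psmb9. At Psmb7 it was 81.0 and 61.1, against 19.3 and 19.2 at Psmb10. At Psma7 it was 48.6 and 38.1, and at Psma8 21.3 and 22.4. This track and the peak values come from the same alignments and are not independent measurements. In the plot of the track around the start, each open promoter shows a main maximum within about 100 bp of the start and Psmb11 shows a flat line.

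**Figure D3:**
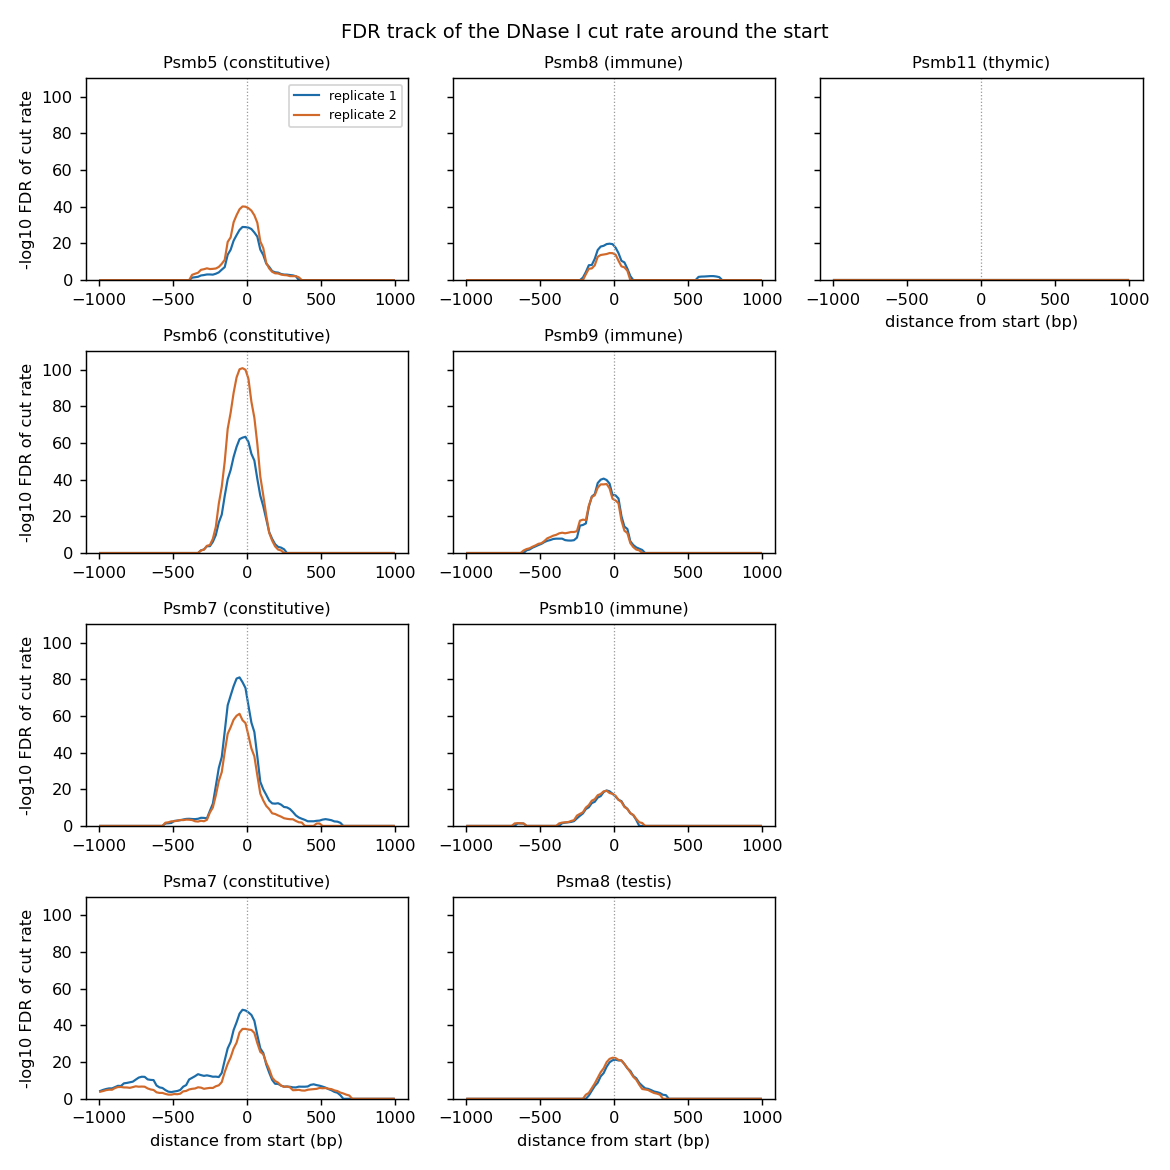
−log10 of the FDR of the cut rate in bins of 20 bp, against the distance from the annotated start nearest to the peak (for Psmb11 the 5' end of the gene), for constitutive genes (left) and their paralogs. Lines are the 2 libraries, and a value of 0 means that no base was listed below an FDR of 0.05. The maxima of Psmb6 (63.4 and 101) are above those of Psmb9 (40.6 and 37.6), and Psmb11 has none.

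Of the 6 ATPase genes, which unfold substrates and open the core, 3 had values above 10 in at least 1 library and 2 more lay between 4.90 and 6.90. Psmc4 had 13.5 and 12.6 (13.04 ± 0.64), the second highest mean of all members. Psmc5 had 11.05 and 10.8 and Psmc3 had 11.1 and 9.98. Psmc2 had 6.90 and 5.78 and Psmc6 had 5.91 and 4.90. Psmc1 was the lowest constitutive subunit in both libraries, at 2.22 and 2.30 (2.26 ± 0.059). Psmc2 also held a second peak of like height inside the gene, 1437 bp from the 5' end in replicate 1, with 6.79 and 6.32. It overlaps the second RefSeq promoter window of Psmc2 and lies more than 1000 bp from the starts used here.

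The 11 other cap subunits had a median of 7.98 ± 0.70. The scaffold gene Psmd2 had 12.3 and 10.2, Psmd3 had 10.9 and 11.2 and Psmd12 had 10.6 and 8.97. Psmd4, a ubiquitin receptor, had 8.96 and 9.69, and Psmd8 and Psmd7 followed at 9.12 and 9.43 and at 8.47 and 7.48. Psmd11 had 7.34 and 6.69 and Psmd13 had 6.36 and 6.30. Psmd14, the deubiquitinase of the cap, had 4.73 and 5.15, below Psmd13 in both libraries, and Psmd6 had 4.53 and 4.21. Psmd1, the other large scaffold subunit, had 3.42 and 4.24, the lowest mean of these 11 genes though above Psmd6 in replicate 2, so the 2 scaffold genes were unlike each other.

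Assembly factors spanned a similar range. Of the cap chaperones, Psmd5 had 9.96 and 11.1, Psmd9 had 8.97 and 8.55, and Psmd10, on the X chromosome, had 4.01 and 5.19. Of the core chaperones, Psmg1 had 11.1 and 8.13 (9.64 ± 2.1) and Psmg4 had 6.89 and 6.53, while Psmg3 had 3.84 and 3.22 and Psmg2 had 3.03 and 2.59. Psmg1 and Psmg2, whose proteins act as a pair, thus differed in both libraries. All 4 core chaperone genes were lower in replicate 2, as were 9114 of the 15059 open protein-coding genes. The inhibitor gene Psmf1 had 4.34 and 4.44.

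Among the activators, Psme3, which encodes a nuclear activator, had 6.33 and 6.72, and Psme4, whose product activates the core and is known for a role in spermatogenesis, had 5.62 and 6.02. Psme1 and Psme2 encode the partners of an interferon-inducible activator. Psme1 had 2.23 and 2.12, by mean the third lowest of the open members, while Psme2 had 5.39 and 6.53. The Psme2 values come from different peaks: near the start the peak had 4.83 and 6.53, and another, upstream of the gene (midpoint at −557 bp from the 5' end in replicate 1), had 5.39 and 5.55. At the near peak alone Psme2 was still above Psme1 in each library. Psme2b, a gene with a single annotated exon on chromosome 11 (48945354 to 48946190), had no peak, and the FDR track listed 0 of its 2001 window bases. It resembles Psme2 in sequence, and no source used here states the handling of reads that fit several places. Its RefSeq window had the lowest CpG ratio of the members, 0.0904.

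The members differed little between the libraries. The log2 ratio of replicate 2 over replicate 1 ran from −0.46 (Psmg1) to 0.48 (Psmb6) over the 48 open members, with an SD of 0.20 and a median of 0.01. Over all open genes the SD was 0.28 and the median −0.07. The libraries differed by less than 10% at 26 of the 48, and most at Psmb3, Psmb6, Psmd10 and Psmg1. No such count over all open genes is given here. The range of 2.22 to 14.7 among constitutive subunits within replicate 1 was thus much wider than the spread between libraries of any member. The scatter of replicate 2 against replicate 1 shows the members along the diagonal, within the cloud of the other genes.

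**Figure D4:**
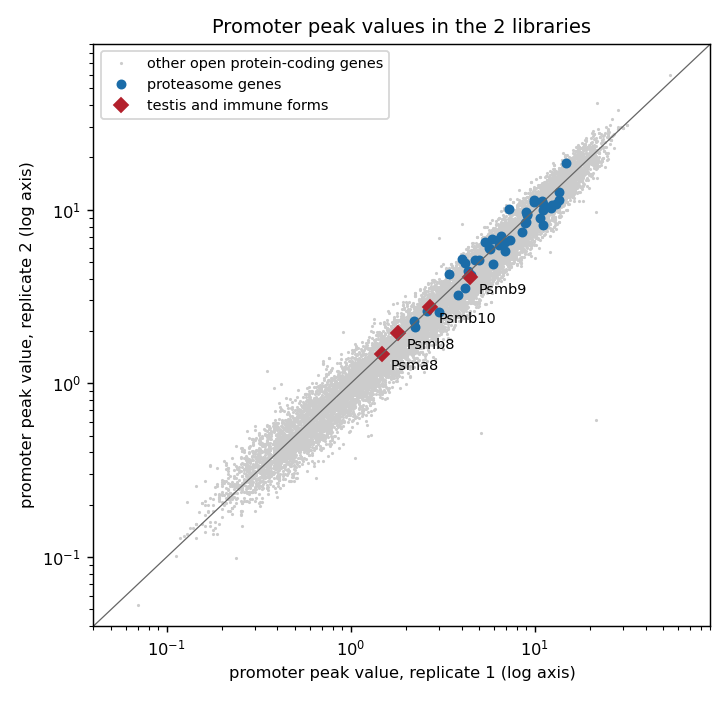
Promoter peak value (authors' signal) in replicate 1 against replicate 2 on log axes, for open protein-coding genes (grey), proteasome genes (blue) and the testis and immune forms (red). The red points fall at the low end of the members, from 1.47 and 1.48 (Psma8) to 4.42 and 4.08 (Psmb9), close to the diagonal.

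Peaks were narrow and close to starts. The highest peak was 200 bp wide at the median in both libraries and from 120 to 520 bp over the members. Its midpoint lay within 150 bp of an annotated start in both libraries for 45 of 48 genes, the others being Psma5, Psme2 and Psmg2. It lay upstream of the gene at 29, in an exon at 16 and in an intron at 3 (Psmb10, Psmd5 and Psmf1) in replicate 1. The highest peak was the same in both libraries at 47 of 48, the exception being Psme2. These widths, positions and counts are given for members only, so whether they are particular to proteasome genes is unknown.

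At 5 genes the value moved by over 1.5 times when the 5' end of the gene record was the only start used. With that end alone Psmd9 and Psmf1 had no peak, and Psma6 had one in replicate 1 only, of 0.409. Psmd5 had 0.484 and 0.506 there in place of 9.96 and 11.1. The midpoint of the highest peak of Psmd9 lay 58797 bp into the record, that of Psma6 14578 bp, that of Psmd5 3958 bp and that of Psmf1 2866 bp in replicate 1, each within 150 bp of another annotated start, and Psmb10 is described above.

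In replicate 1, 12 of the 48 open members (25%) had their highest peak in the promoter window of another protein-coding gene, against 18.5% of all open genes. At 10 (20.8%) the partner lay on the other strand with a start within 500 bp, against 14.9% of open genes. These divergent pairs were Psma2 with Mrpl32, Psma4 with AY074887, Psma7 with Ss18l1, Psmb1 with Tbp, Psmb9 with Tap1, Psmc2 with Dnajc2, Psmc5 with Ftsj3, Psmd13 with Sirt3, Psmd10 with Atg4a and Psmg2 with Cep76. Distances between nearest starts ran from 30 bp (Psmb9) to 263 bp (Psmg2). A peak of such a pair does not tell its 2 genes apart. The others were Psme2 with Rnf31 and Psmg3 with Gm26938.

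Footprints were found in the promoter windows of 48 members in both libraries, against 67.4% of all genes. These 48 are the open members, and 14766 of the 15059 open protein-coding genes also held footprints in both libraries. Constitutive subunits held a median of 9 footprints per promoter in replicate 1 and 10 in replicate 2 (9.5 ± 0.71), close to the 8 and 9 over all open genes. Psmd11 had 10 and 20 and Psma7 15 and 19, but windows differ in length with the number of starts. The immune forms held 4 to 5 footprints in replicate 1 and 4 to 7 in replicate 2, Psma8 held 2 and 5, and Psmb11 and Psme2b held none. Inside the highest peak alone, constitutive subunits held a median of 4 in both libraries. More footprints were listed in replicate 2 as a whole (349555 against 269247), and part of a difference between libraries can follow that number; this was not tested.

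Consensus letters of known factors were searched on both strands of RefSeq promoter windows (GRCm38.p6, 250 bases before to 50 after a start). The motifs were chosen with earlier results of these data known. Of the 50 members 42 matched the table, with 45 windows; Psma8, Psmb1, Psmb2, Psmb7, Psmc3, Psmd3, Psmd7 and Psmg2 did not match. At 36 of the 40 open members matched, a window overlapped the highest peak of replicate 1; at Psma5, Psmb8, Psmb10 and Psme2 it did not. The ETS core CCGGAAG was found in 16 of 45 windows (35.6%), against 15.4% of windows of open genes and 11.9% of all. These windows belong to 15 genes: Psma6, Psmc1, Psmc2, Psmc6, Psmd2, Psmd4, Psmd6, Psmd11, Psmd12, Psmd13, Psme3, Psme4, Psmg1, Psmg3 and Psmc3ip. Of their 21 matches, 13 (61.9%) overlapped a footprint in both libraries, against 41.0% of matches in open genes. None of the Psmb genes matched held it in its window, though the Psmb10 peak, which lies outside that gene's window, holds it in 2 places. An overlap counts from 1 base. In the Psmc3ip peak (chr11:101095341-101095560, minus strand), shown as the meiotic gene under this name and as an example of a protected ETS core, 1 of 3 matches overlapped a footprint in both libraries.
Psmc3ip: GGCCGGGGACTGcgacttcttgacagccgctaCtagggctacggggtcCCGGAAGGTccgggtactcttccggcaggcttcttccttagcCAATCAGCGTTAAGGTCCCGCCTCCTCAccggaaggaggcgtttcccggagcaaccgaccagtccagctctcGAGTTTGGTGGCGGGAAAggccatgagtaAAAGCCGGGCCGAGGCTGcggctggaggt

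NFE2L1 is the transcription factor that raises proteasome genes when proteasome activity is short. Its full element TGACTCAGC was in 0 of the 45 windows and in 0.423% of windows of open genes. The loose form TGACNNNGC, which contains the full one, was in 6 windows (13.3%), against 14.0% of windows of open genes. At Psmb5, Psmb6 and Psmd9, 3 of its 6 matches, it overlapped a footprint in both libraries, as did 28.2% of its matches in open genes. The palindromic site of nuclear respiratory factor 1 was in 4.44% of windows (Psma2 and Psmg1), against 1.85% of windows of open genes. Both matches overlapped footprints of both libraries, as did 97.9% of matches to this site in open genes. The YY1 site was in 2.22% of windows (Psmb6), against 1.71% of windows of open genes. Its match overlapped a footprint in both libraries, as did 58.9% of YY1 matches in open genes. The interferon regulatory element was in 5 windows (11.1%), against 2.78% of windows of open genes, at Psmb3, Psmd4, Psmd9, Psme1 and Psmg4, and at Psmb3 it overlapped a footprint of both libraries by its outermost base.

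The other motifs searched were near or below the share in open genes. CCAAT was in 33.3% of windows against 37.5%, GGGCGG in 53.3% against 60.6%, TTCNNNGAA of STAT factors in 6.67% against 6.64%, and the MYB sites CCGTTA and AACTG in 2.22% against 3.67% and in 40.0% against 37.8%. TGACGTCA and the sites of ZNF143 and NF-kB were in no window, against 2.89%, 0.591% and 0.175%. A match is a description of letters and not a binding site. The plot of motif shares sets members beside open and all genes.

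**Figure D5:**
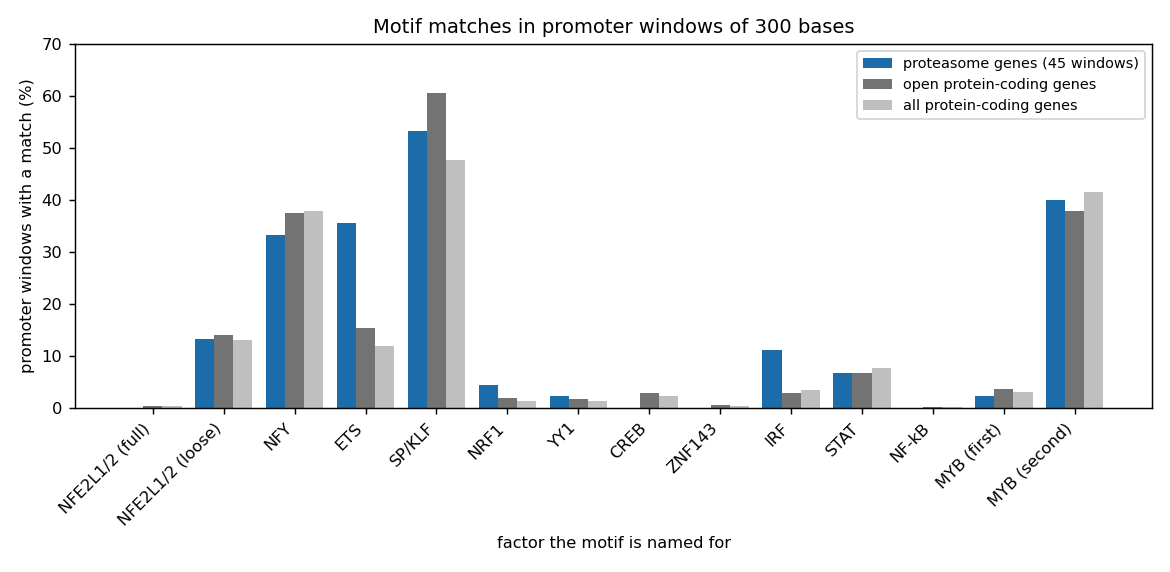
Share of RefSeq promoter windows of 300 bases that hold each motif on either strand (y axis, percent), for the 45 windows of proteasome genes, for open and for all protein-coding genes. The bars differ most at ETS, with 35.6% of member windows against 15.4% and 11.9%, and are close at most other motifs.

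The wider pathway was open as well. Of 24 listed genes for further cap subunits, shuttle factors, assembly and regulation, Paaf1 was not matched by symbol. The other 23 were open, against 68.7% of all protein-coding genes, with medians of 8.66 and 8.73 in the 2 libraries. The highest were Rad23b, a shuttle of ubiquitinated proteins, at 24.7 and 19.3, Nfe2l1 itself at 16.7 and 23.0, and Vcp, the unfoldase upstream of the proteasome, at 17.4 and 19.3. The cap subunit genes outside the Psm symbols, Adrm1 and Sem1, had 12.9 and 8.84 and 5.45 and 4.89. Pomp, the maturation factor of the core, had 5.403 and 4.88.

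The genes that work with the immunoproteasome in antigen presentation were open at 8 of 9, against 68.7% of all protein-coding genes. Their medians were 3.04 and 2.83, beside 2.68 and 2.77 for the immune forms. These groups are not independent, since Tap1 is in this list and its value (4.42 and 4.08) is that of the peak shared with Psmb9. Tapbp, a chaperone of peptide loading, had 13.2 and 12.5, H2-D1 had 4.54 and 4.60, Tap2 had 2.65 and 1.53 and the light chain gene B2m had 2.74 and 2.83. Irf1, an interferon-responsive factor, had 3.33 and 3.12, and Nlrc5, the activator of class I genes, was low at 0.688 and 0.423. Ciita, the activator of class II genes and active in leukocytes that present antigen, had no peak. Which cells of the testis carry the open immune forms was not tested.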

How the data were processed

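DNase-seq of 2 testis libraries was analysed on mm10. For each library the authors deposited 2 peak lists of unequal length, footprints and a track of the cut-rate FDR, made from that library's alignments per the deposited text descriptions. Peak values are a signal set by the authors. In each library all values below 1 were whole multiples of 1 step within 0.05 steps (0.00538 and 0.00377), whose meaning no source states. Depth in reads is unknown. The deposited FDR track is a p-value type of column (q-values below 0.05), and the footprint column holds a constant p-value threshold of 0.01, so only footprint positions were used. Aligner and callers: not given in the sources used here.

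Used here were the longer lists, of 101172 and 117359 peaks, with 1 gene kept per symbol and overlaps of 1 bp or more. Every member was named, and 1 listed marker is not reported here. Members, roles, motifs and lists were chosen with earlier results of these data known. Python 3.11.15, pandas 2.3.3 and bedtools 2.31.1 were used, and the promoter and motif steps were tested on simulated data. Sequences are from the GRCm38.p6 genome and RefSeq promoter table.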

Additional observations from a re-analysis of the deposited data

How the results depend on the processing

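With windows of 500 or 2500 bp, the shorter peak list or peaks at or above the median value, 48 members were open, and 45 with the 5' end alone; 36 had a peak in no other gene's window. The median of constitutive subunits was 7.41 with either window, the 5' end alone or the shorter list, and 7.34 to 7.48 without replicate 2 or 1. That of the immune forms was 2.68 to 2.77 without a replicate and 1.87 with the 5' end alone, where Psmb10 loses its highest peak and falls below Psmb8. Leaving out a replicate kept the open count at 48. Footprints per constitutive promoter had a median of 9 to 10 without a replicate, 8.5 with windows of 500 bp or the 5' end alone, 10.5 with 2500 bp and 4.0 inside the highest peak, as the searched length changed. The median log2 ratio between libraries at members minus that of all open genes was 0.08, and 0.060 with the 5' end alone. Of single members, 5 moved by over 1.5 times with the 5' end alone (Psma6, Psmb10, Psmd5, Psmd9 and Psmf1) and none under the other windows or the shorter list. No paired analysis was possible because there is 1 group. The number of reads behind a value is unknown, and a gene without a peak is one for which the lists hold no entry.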
